A study of Mus musculus with 25 samples.

Results

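Microglial transcripts of 10 chemokine genes were followed here: Ccl2, Ccl7, Ccl12, Ccl3, Ccl4, Ccl6, Ccl9, Cxcl10, Cxcl16 and Cxcl2. They were taken by gene symbol from a table of 43411 genes, and 9 of the 10 were among the 12908 genes with enough reads to be tested, Cxcl2 being the exception. The study deleted the floxed Alzheimer's risk gene Bin1 in forebrain excitatory neurons with a Thy1-driven Cre and asked what happened to the transcriptome of neighbouring microglia. Microglia were sorted as CD11b+ CD45med cells from the brains of 3-month-old mice without cerebellum and olfactory bulbs, and each library came from 1 animal. Homozygous Bin1-cKO mice were Bin1flox/flox Thy1-Cre+ (n = 10, 5 females and 5 males). Heterozygous mice were Bin1flox/wt Thy1-Cre+ (n = 7, 4 females and 3 males), and WT littermates were Bin1flox/wt Thy1-Cre- (n = 6, 2 females and 4 males), so that the WT group also carried 1 floxed allele and differed from the heterozygous group by the Cre transgene. The labels list 25 mice, and the libraries of 1 WT female and 1 heterozygous male were not analysed here. Mice of the floxed line (B6.129S6-Bin1tm2Gcp/J) and of the Cre line (FVB/N-Tg(Thy1-cre)1Vln/J) have different strain backgrounds.

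Total counts ran from 10812969 to 16734846 per library. Levels are given as CPM (read counts scaled to a common library size) after TMM scaling, and a gene is called where the adjusted p of edgeR's quasi-likelihood test over all 12908 genes is below 0.05 and the fold change exceeds 1.5. All 12 microglial markers examined, Cx3cr1 and P2ry12 among them, were detected, and their summed level was 61190 to 71760 CPM in homozygous, 65690 to 87310 CPM in heterozygous and 70300 to 99490 CPM in WT mice. Between homozygous and WT mice, 11 of the 12 had a log2 fold change below 0, with a median of -0.29. Itgam alone was called lower (-0.61, SE 0.11, adjusted p = 0.000794, edgeR), where 1.75% of all genes were, and 0 were called higher. In bulk libraries, a change in the number of cells of a type and a change in RNA per cell cannot be told apart. Bin1 itself ran from 327 to 672 CPM in homozygous mice (median 468) against 599 to 813 CPM in WT mice (median 688) and 628 to 746 CPM in heterozygous mice (median 690), a log2 fold change of -0.60 (SE 0.12, adjusted p = 0.00173, edgeR) between homozygous and WT mice, although Cre was placed in neurons. Animal numbers in the titles begin with 02 for every WT and heterozygous mouse and with 03 or 04 for homozygous mice, so number range and genotype cannot be told apart. Among homozygous mice, 4 libraries (F1, F2, M1 and M2, all of the 03 range) stood apart by immediate-early transcripts, with Fos at 824 to 1458 CPM against 0.362 to 6.99 CPM in the other 6, and the differences of homozygous mice from WT and heterozygous mice are given with and without them.

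Chemokines are small secreted proteins that steer the migration of leukocytes through G protein-coupled receptors, and microglia are a main source of them in the brain. Ccl2, Ccl7 and Ccl12 attract monocytes through the receptor Ccr2, Ccl3 and Ccl4 are macrophage inflammatory proteins that attract monocytes and lymphocytes, and Ccl6 and Ccl9 belong to a rodent branch that acts on Ccr1. Cxcl10 is induced by interferons and acts on Cxcr3, Cxcl16 is a membrane-anchored ligand of Cxcr6, and Cxcl2 attracts neutrophils through Cxcr2. Several of these genes are targets of NF-kB and AP-1, the latter formed by Fos and Jun family proteins.

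The members fall into clusters on the genome (mm10). Ccl2 (chr11:82035571-82037453), Ccl7 (chr11:82045712-82047525) and Ccl12 (chr11:82101845-82103400) lie on the plus strand, with 8.26 kb between Ccl2 and Ccl7 and 54.3 kb between Ccl7 and Ccl12. A second cluster on chromosome 11 holds Ccl9 (chr11:83572919-83578636), Ccl6 (chr11:83587882-83593087) and Ccl3 (chr11:83647844-83649355) on the minus strand and Ccl4 (chr11:83662584-83664683) on the plus strand, with 13.2 kb between Ccl3 and Ccl4 and 54.8 kb between Ccl6 and Ccl3. Cxcl16 (chr11:70453983-70459984, minus strand) stands alone on the same chromosome. Cxcl10 (chr5:92346638-92348889, minus strand) and Cxcl2 (chr5:90903871-90905938, plus strand) lie on chromosome 5.

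RefSeq promoter windows (GRCm38.p6, 250 bases before to 50 after the start) were at hand for 6 of the 10 genes, and 4 are shown because they pair chemokines that rose in homozygous mice (Ccl3, Ccl12) with chemokines that did not pass the test (Ccl9, Cxcl10). Capitals mark matches, on either strand, to an AP-1 site (TGANTCA), an interferon-stimulated response element (GAAA, 2 unspecified bases, GAAA), a gamma-activated site (TTCNNNGAA) or the NF-kB consensus.
Ccl3, chr11:83649329-83649628, minus strand: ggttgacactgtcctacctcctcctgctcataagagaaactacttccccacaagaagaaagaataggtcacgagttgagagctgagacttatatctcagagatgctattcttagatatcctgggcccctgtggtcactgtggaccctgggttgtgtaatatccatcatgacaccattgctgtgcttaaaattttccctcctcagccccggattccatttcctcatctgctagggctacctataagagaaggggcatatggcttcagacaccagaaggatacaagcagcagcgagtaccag
Ccl12, chr11:82101595-82101894, plus strand: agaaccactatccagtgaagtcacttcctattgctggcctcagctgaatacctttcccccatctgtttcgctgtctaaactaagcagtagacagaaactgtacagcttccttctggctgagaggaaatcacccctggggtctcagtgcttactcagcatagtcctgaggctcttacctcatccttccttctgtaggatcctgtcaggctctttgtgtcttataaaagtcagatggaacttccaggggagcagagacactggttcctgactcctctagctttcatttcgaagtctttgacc
Ccl9, chr11:83578587-83578886, minus strand: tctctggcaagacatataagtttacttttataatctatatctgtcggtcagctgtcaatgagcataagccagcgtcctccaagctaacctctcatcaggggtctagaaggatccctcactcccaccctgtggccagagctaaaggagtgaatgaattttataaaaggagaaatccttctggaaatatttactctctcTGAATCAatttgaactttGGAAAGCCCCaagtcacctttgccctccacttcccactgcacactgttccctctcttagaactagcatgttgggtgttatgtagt
Cxcl10, chr5:92348840-92349139, minus strand: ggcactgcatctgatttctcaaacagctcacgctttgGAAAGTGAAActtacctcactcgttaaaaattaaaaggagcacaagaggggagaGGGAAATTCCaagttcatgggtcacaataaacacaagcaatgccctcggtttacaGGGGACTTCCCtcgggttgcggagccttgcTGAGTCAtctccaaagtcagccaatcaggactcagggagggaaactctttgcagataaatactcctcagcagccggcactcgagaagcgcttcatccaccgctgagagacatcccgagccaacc

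None of the 4 motifs matched in the Ccl3 and Ccl12 windows, nor in that of Ccl6. Cxcl10 held an AP-1 match starting 74 bases before the start, the interferon-stimulated response element 213 bases before it, and NF-kB matches at 159, 104 and 103 bases before it, of which the last pair overlap. Ccl9 held an AP-1 match 53 bases and an NF-kB match 35 bases before the start, and Cxcl2 held overlapping NF-kB matches 97 and 96 bases before it. Of 32851 promoter windows, 7.81% held the AP-1 letters, 3.44% the interferon-stimulated response element, 8.30% the gamma-activated site and 8.46% the NF-kB consensus. A match is a description of these letters, and the absence of one concerns this window only.

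Monocyte-attracting chemokines rose in homozygous mice. Ccl2, Ccl7 and Ccl12 were 10.3-fold, 9.88-fold and 2.98-fold higher than in WT mice, and all 3 were called. Ccl2 lay between 1.08 and 2.02 CPM in WT mice (median 1.59) and between 0.766 and 2.15 CPM in heterozygous mice (median 1.33). In homozygous mice it was 30.9, 32.8, 4.41, 4.02 and 5.15 CPM in females F1 to F5 and 30.4, 27.0, 3.16, 12.4 and 7.10 CPM in males M1 to M5. Every homozygous mouse was above every other mouse, but the homozygous values were spread over 10.4-fold against 1.87-fold in WT mice. Its log2 fold change was 3.36 (SE 0.54, adjusted p = 0.000355, edgeR).

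Ccl12, which is found in mice and overlaps Ccl2 in function, was far more abundant, at 22.6 to 34.2 CPM in WT (median 29.3) and 12.9 to 29.6 CPM in heterozygous mice (median 24.6). The homozygous values were 99.0, 68.3, 57.5, 42.2 and 38.6 CPM in females F1 to F5 and 79.8, 111, 36.2, 266 and 52.8 CPM in males M1 to M5. No homozygous mouse overlapped with the others, and M4, a mouse of the 04 range with low Fos, was far above the next. On the log2 scale it was 1.57 higher than in WT mice (SE 0.33, adjusted p = 0.00297), and it was 1.18 without M4, still called.

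Ccl7 was rare, with 1 to 15 counts in WT libraries (0.0676 to 1.12 CPM, median 0.0755), 0 to 11 counts in heterozygous libraries (0 to 0.730 CPM, median 0.331) and 5 to 66 counts in homozygous libraries (0.305 to 4.79 CPM, median 2.91). Of the 10 homozygous mice, 8 were above every other mouse, and F4 and M3 overlapped with them. The log2 fold change of 3.31 (SE 0.69, adjusted p = 0.00293) rests on these low counts, and it was 4.58 without WT male M1, the only WT mouse above 1 CPM.

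Ccl3 and Ccl4, the macrophage inflammatory proteins, rose as well. Ccl3 was 5.27-fold and Ccl4 3.63-fold higher in homozygous than in WT mice. Ccl3 lay between 5.93 and 14.8 CPM in WT (median 8.16) and between 5.57 and 8.61 CPM in heterozygous mice (median 7.0). Homozygous females F1 to F5 had 102, 68.0, 18.7, 25.1 and 18.3 CPM, and males M1 to M5 had 90.2, 98.3, 20.1, 16.9 and 18.0 CPM. All 10 were above all other mice, in a high set of 4 and a low set of 6 with none between 25.1 and 68.0 CPM. Relative to WT mice it was 2.40 higher on the log2 scale (SE 0.43, adjusted p = 0.000943, edgeR).

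Ccl4 ran from 12.1 to 24.9 CPM in WT (median 15.2) and from 13 to 19.1 CPM in heterozygous mice (median 15.2). It was 127, 97.9, 24.8, 30.8 and 26.5 CPM in homozygous females F1 to F5 and 117, 106, 21.9, 28.3 and 25.3 CPM in males M1 to M5. The same split was seen, and F3 and M3 fell within the range of the WT mice. For Ccl4 the log2 fold change was 1.86 (SE 0.39, adjusted p = 0.00301).

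Cxcl16 rose by less than the fold threshold. It was the least variable member, at 48.9 to 56.6 CPM in WT (median 53.7), 47.9 to 57.7 CPM in heterozygous (median 52.2) and 60.4 to 104 CPM in homozygous mice (median 72.4), with no overlap between homozygous and other mice. Its log2 fold change of 0.53 (SE 0.10, adjusted p = 0.00134, edgeR) corresponds to 1.44-fold, so it was not called, and it was called (0.63) with library totals in place of TMM. The gene overlaps Zmynd15 on the other strand, 16.9% of its 50-base stretches occur in that gene too, and the kit does not mark strand. Zmynd15 was at 1.62 to 8.81 CPM over all mice.

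Ccl6 and Ccl9 were the most abundant members in WT mice and were not called. Ccl6 was 220 to 347 CPM in WT (median 286), 210 to 274 CPM in heterozygous (median 258) and 145 to 351 CPM in homozygous mice (median 237), a log2 fold change of -0.25 (SE 0.13, adjusted p = 0.229, edgeR). Ccl9 was 192 to 257 CPM, 175 to 249 CPM and 136 to 323 CPM in the same order (medians 225, 210.6 and 196), with a log2 fold change of -0.15 (SE 0.15, adjusted p = 0.573). The groups overlapped for both. Intervals of 2 SE ran from -0.52 to 0.015 for Ccl6 and from -0.44 to 0.15 for Ccl9, so a change of the size seen for Ccl3, their neighbour in the cluster, lay outside them.

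Cxcl10 was rare and variable in each genotype, at 0.152 to 2.25 CPM in WT (median 0.567), 0.248 to 3.17 CPM in heterozygous (median 0.766) and 0.580 to 3.36 CPM in homozygous mice (median 1.5). The log2 fold change of 0.78 (SE 0.55, adjusted p = 0.384, edgeR) was not called, and at 2 to 48 counts per library its interval of 2 SE reached from -0.31 to 1.88. Cxcl10 overlaps Art3 on the other strand, and 3.59% of the 50-base stretches of Cxcl10 occur in Art3 too. Art3 was at 0 to 1.83 CPM over all mice. Cxcl2 had 9, 7, 0, 0 and 4 counts in homozygous females F1 to F5 and 3, 10, 0, 5 and 0 counts in males M1 to M5, against 1 count in all WT and 1 count in all heterozygous libraries. That is a 22-fold ratio of CPM to WT mice (exact 95% interval for counting error only, 3.71 to 890). With no filter on low counts it was tested, and its log2 fold change was 3.83 (SE 1.21, adjusted p = 0.0519) against WT and 3.86 (SE 1.13, adjusted p = 0.0225) against heterozygous mice.

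In all, 5 of the 9 chemokines tested were called higher and 0 lower between homozygous and WT mice, where 1.65% of the 12908 genes were called higher. Of all genes 213 were called higher and 226 lower, and with library totals in place of TMM 347 of 515 called genes were higher, with the 5 chemokines and Cxcl16 among them. The median log2 fold change was 1.57 over the 9 chemokines and 0.012 over all genes. For 4 of them, Ccl2, Ccl3, Ccl12 and Cxcl16, all 10 homozygous mice lay above all 13 other mice, which held for 0.403% of genes.

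**Figure D1:**
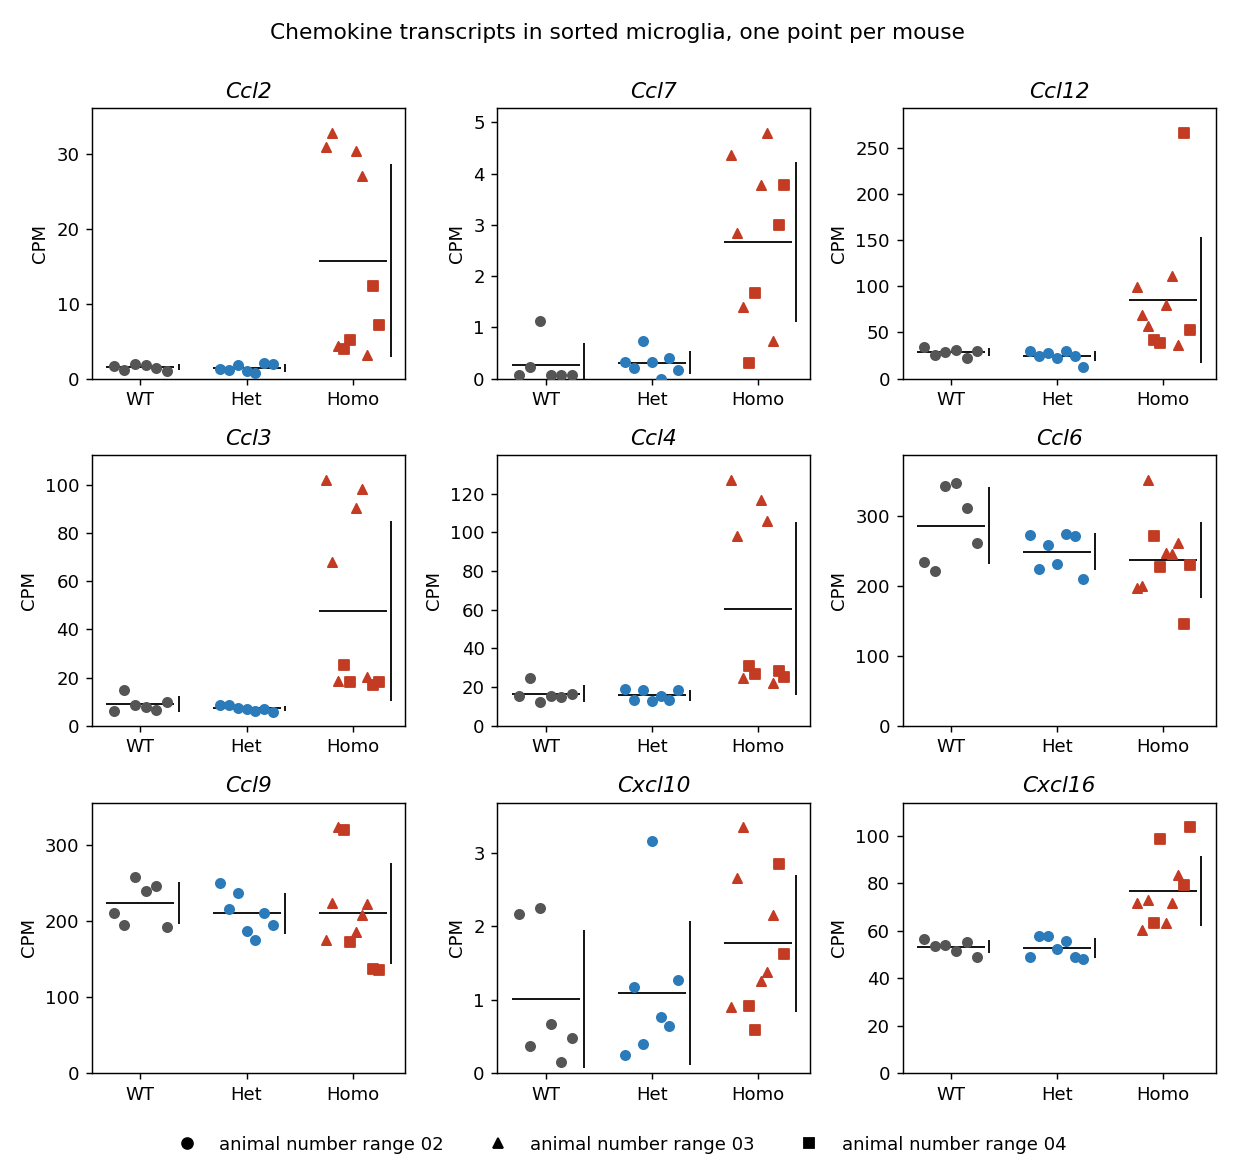
CPM of 9 chemokines in WT, heterozygous (Het) and homozygous (Homo) mice, 1 point per mouse, with shapes for the range of the animal number, horizontal lines for group means and vertical lines for ± SD (drawn down to 0 at the lowest). Homozygous values of Ccl3 and Ccl4 form a high set of 4 and a low set of 6, and those of Ccl6, Ccl9 and Cxcl10 overlap with the other genotypes.

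The order of the transcripts was compared per kb of exonic length, since CPM cannot be compared between genes of different length. In WT mice it was Ccl6 (159 ± 30.6 CPM per kb, SD, n = 6), Ccl9 (73.2 ± 9.13), Ccl12 (53.5 ± 7.64), Ccl4 (25.0 ± 6.63), Cxcl16 (17.7 ± 0.896), Ccl3 (11.6 ± 4.22), Ccl2 (1.36 ± 0.331), Cxcl10 (0.450 ± 0.419) and Ccl7 (0.34 ± 0.53), with Cxcl2 last at 1 count. Of these neighbours, Ccl9 with Ccl12, Ccl4 with Cxcl16, Cxcl16 with Ccl3, Ccl2 with Cxcl10, and Cxcl10 with Ccl7 had overlapping ranges. In homozygous mice, Ccl12 (159 ± 127 CPM per kb, SD, n = 10) and Ccl6 (132 ± 30.3) headed the order, Ccl4 (91.6 ± 67.9) stood at Ccl9 (68.9 ± 21.7) and Ccl3 (62.1 ± 48.7), and all neighbours overlapped.

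**Figure D2:**
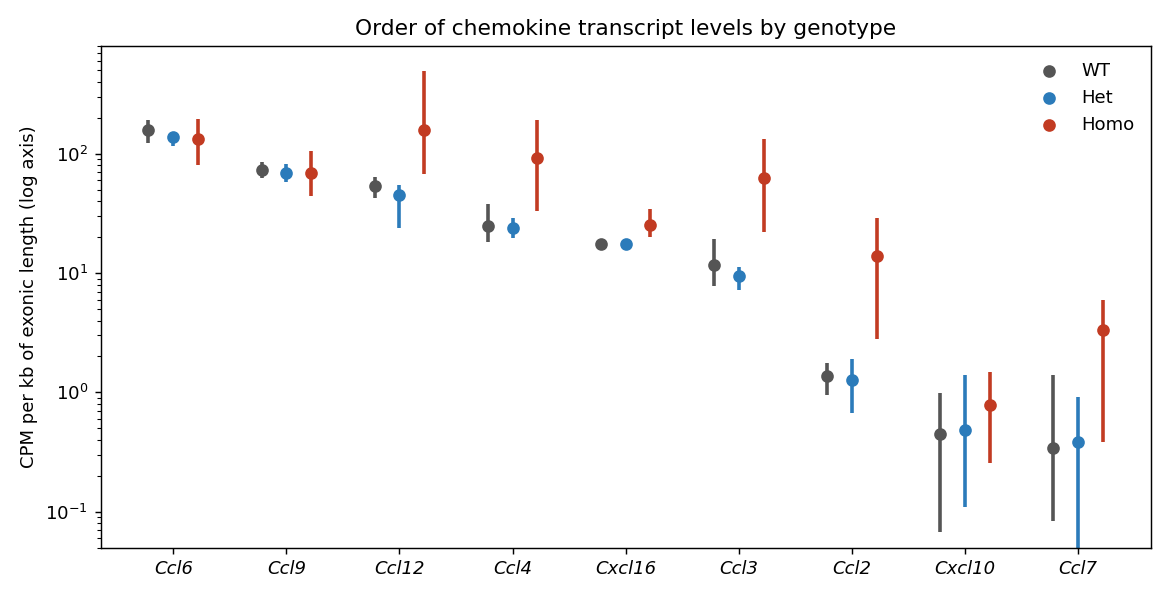
Mean level (points) and range over mice (lines) of 9 chemokines in CPM per kb of exonic length on a log axis, ordered by the WT mean, for WT (n = 6), Het (n = 7) and Homo (n = 10). Ccl6 and Ccl9 stay at like levels in the 3 genotypes while Ccl12, Ccl4, Ccl3, Ccl2 and Ccl7 are higher in homozygous mice, and the line of Ccl7 in heterozygous mice, whose lowest value is 0, is cut at the axis.

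Heterozygous mice, which carry the same Cre, were set against WT mice to ask whether loss of 1 allele has a like effect. None of the 9 chemokines was called by edgeR, and 0 had an unadjusted p below 0.05. The same count of 0 chemokines was given by DESeq2 and by limma-voom. Over all genes 0.0% were called by edgeR (0 of 12908, with 998 at an unadjusted p below 0.05) and 0 by each of the other tools. Log2 fold changes were -0.07 (SE 0.58) for Ccl2, -0.33 (SE 0.46) for Ccl3, -0.09 (SE 0.41) for Ccl4, 0.34 (SE 0.78) for Ccl7 and -0.16 (SE 0.35) for Ccl12. The interval of 2 SE ran from -1.22 to 1.09 for Ccl2, from -1.26 to 0.59 for Ccl3 and from -1.22 to 1.90 for Ccl7. A change of these genes within these limits was not excluded with these mice.

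Against heterozygous mice, homozygous mice again had higher Ccl2, Ccl7, Ccl12, Ccl3 and Ccl4, a comparison that shares the 10 homozygous mice with the former. The log2 fold changes were 3.43 (SE 0.51), 2.96 (SE 0.64), 1.73 (SE 0.32), 2.73 (SE 0.42) and 1.95 (SE 0.37), with adjusted p from 8.10e-05 to 0.00203 (edgeR). These 5 of 9 were called higher where 2.32% of all genes were (299 of 854 called genes, and 402 of 824 with library totals in place of TMM). Cxcl16 had a log2 fold change of 0.54 (SE 0.10, adjusted p = 0.000384), again under the fold threshold, and Ccl6, Ccl9 and Cxcl10 were not called. Without the 4 mice of highest Fos the log2 fold changes were 2.00 (SE 0.31) for Ccl2, 2.34 (SE 0.71) for Ccl7, 1.64 (SE 0.37) for Ccl12, 1.46 (SE 0.17) for Ccl3 and 0.75 (SE 0.14) for Ccl4, and these 5 and Cxcl16 (0.66, SE 0.095) were called where 1.66% of genes were called higher. With Fos as covariate in all mice, they were 1.83 for Ccl2, 1.28 for Ccl3 and 0.60 for Ccl4, all called.

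Ccl3 and Ccl4 differed between the homozygous mice of both number ranges. Ccl3 was 18.7 to 102 CPM in the 6 mice of the 03 range (median 79.1) and 18.3, 25.1, 16.9 and 18.0 CPM in F5, F4, M4 and M5 of the 04 range. Its log2 difference was 1.77 (SE 0.37, adjusted p = 0.0235, edgeR), and that of Ccl4 was 1.57 (SE 0.35, adjusted p = 0.0409). The ranges overlapped for both, since F3 and M3 of the 03 range sat with the 04 range. Both calls were lost with robust estimation (adjusted p = 0.0724 and 0.107) and with limma-voom (adjusted p = 0.225 and 0.267), and with any of M1, M2, M4, M5 and F5 left out. The Ccl4 call was lost in 16 of the 23 fits with 1 mouse left out, and Ccl2 was called in addition without F3 or without M3. Ccl2 had a log2 difference of 1.63 (SE 0.49, adjusted p = 0.174), and Ccl12 one of -0.33 (SE 0.39, adjusted p = 0.863), which was 0.76 without M4. The 2 of 9 chemokines called higher compare with 0.302% of all genes.

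Each range was also set against the same WT mice. With the 03 range alone, 5 chemokines were called higher (1.74% of genes), and with the 04 range alone 6 were (1.18% of genes), the sixth being Cxcl16. Log2 fold changes were 3.80 (SE 0.49) and 2.22 (SE 0.33) for Ccl2, 2.88 (SE 0.36) and 1.08 (SE 0.19) for Ccl3, 2.30 (SE 0.34) and 0.73 (SE 0.16) for Ccl4, 3.41 (SE 0.70) and 2.98 (SE 0.81) for Ccl7, 1.38 (SE 0.21) and 1.75 (SE 0.38) for Ccl12, and 0.40 (SE 0.079) and 0.69 (SE 0.11) for Cxcl16, in the order 03, 04. Adjusted p for these 6 chemokines ran from 6.21e-05 to 0.0317 (edgeR). The 04 range value of Ccl12 includes M4 at 266 CPM, with 38.6 to 52.8 CPM in the rest of that range.

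The relation of each chemokine to Fos, the AP-1 subunit induced within minutes of cell stimulation, was followed among the homozygous mice. Fos was 1458, 1206, 925 and 824 CPM in F1, M2, M1 and F2, then 6.99 and 5.31 CPM in F3 and M3, and 1.97, 1.11, 0.914 and 0.362 CPM in M4, M5, F4 and F5. WT mice had 0.0676 to 1.73 CPM and heterozygous mice 0.25 to 1.26 CPM. Since the values fall into separate sets, no correlation over the 10 mice was computed, and the mice are described in their order.

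The 4 mice of highest Fos were also the 4 highest for Ccl2 (27.0 to 32.8 CPM against 3.16 to 12.4 CPM in the other 6), for Ccl3 (68.0 to 102 CPM against 16.9 to 25.1 CPM) and for Ccl4 (97.9 to 127 CPM against 21.9 to 30.8 CPM). How many of all genes had the same 4 highest mice was not counted. For Ccl7 and Ccl12, 3 of the 4 were among the 4 highest, with M5 and M4 as the others. Neither Ccl6, Ccl9 nor Cxcl10 followed this order, with 1 of the 4 among the highest in each case, and for Cxcl16 it was 0 of 4, the highest being M5, F5, M3 and M4. Cxcl2 had counts in all 4 of these mice and in 2 of the other 6. All 10 homozygous mice, the 6 of lower Fos included, lay above all 13 other mice for Ccl2, Ccl3, Ccl12 and Cxcl16 (0.403% of genes). Of these 6, 4 lay above every WT and heterozygous mouse for Ccl4 and for Ccl7. The share of genes for the 6 mice alone was not counted.

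Without the 4 mice of highest Fos, 6 of 9 chemokines were called higher against WT mice (1.15% of genes). The log2 fold change was 1.99 (SE 0.33) for Ccl2, 1.09 (SE 0.17) for Ccl3, 0.65 (SE 0.14) for Ccl4, 2.74 (SE 0.74) for Ccl7, 1.5 (SE 0.37) for Ccl12 and 0.65 (SE 0.10) for Cxcl16, with adjusted p from 0.000650 to 0.0243 (edgeR). With the log2 CPM of Fos as a covariate in all 23 mice, the log2 fold change was 1.85 (SE 0.30) for Ccl2, 0.96 (SE 0.22) for Ccl3, 2.66 (SE 0.70) for Ccl7 and 1.45 (SE 0.37) for Ccl12, and these were called, whereas Ccl4 (0.54, SE 0.19, adjusted p = 0.0804) was not. Both Ccl12 values include M4 (266 CPM). The other mice of lower Fos had 36.2 to 57.5 CPM of Ccl12, and the 4 of highest Fos had 68.3 to 111 CPM.

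**Figure D3:**
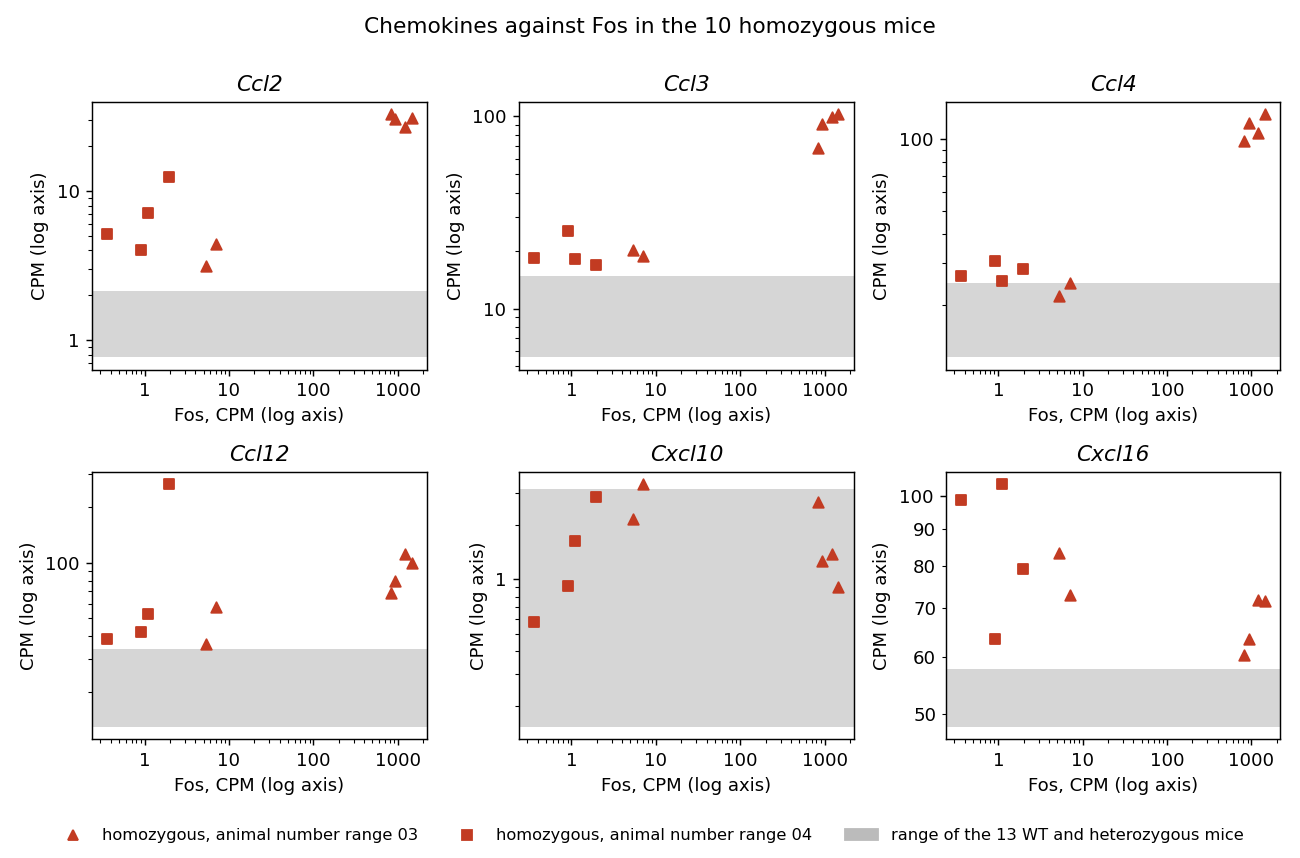
CPM of 6 chemokines against CPM of Fos in the 10 homozygous mice, both on log axes, with shapes for the range of the animal number and a grey band for the range of the 13 WT and heterozygous mice. The 4 mice of highest Fos (824 to 1458 CPM) hold the highest Ccl2, Ccl3 and Ccl4, M4 of the 04 range holds the highest Ccl12, and Cxcl10 and Cxcl16 do not follow the order of Fos.

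Among the 6 mice of lower Fos, correlations of log2 CPM with Fos were computed for 9 chemokines, with two-sided exact permutation tests over 720 pairings. Cxcl10 gave r = 0.875 (exact permutation p = 0.0292, adjusted over the 9 relations 0.263) and rho = 0.943 (exact permutation p = 0.0167, adjusted 0.150), and r = 0.959 without F3 and M3, the 2 mice farthest from the median of Fos. These 6 mice are themselves divided by number range, F3 and M3 having the higher Fos, so that leaving them out keeps just the 4 mice of the 04 range. For the other 8 chemokines, r lay between -0.589 (Ccl4) and 0.395 (Ccl9), with exact permutation p of 0.219 or more, and the sign of r turned for Ccl2, Ccl4, Ccl7, Ccl6 and Ccl9 without F3 and M3. No relation passed the correction. The values without F3 and M3 rest on 4 mice, too few to test a relation within a range. In these 4 mice Fos had just 5 to 27 counts, against 1 to 23 counts in WT mice, and Cxcl10 had 8 to 39 counts.

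**Figure D4:**
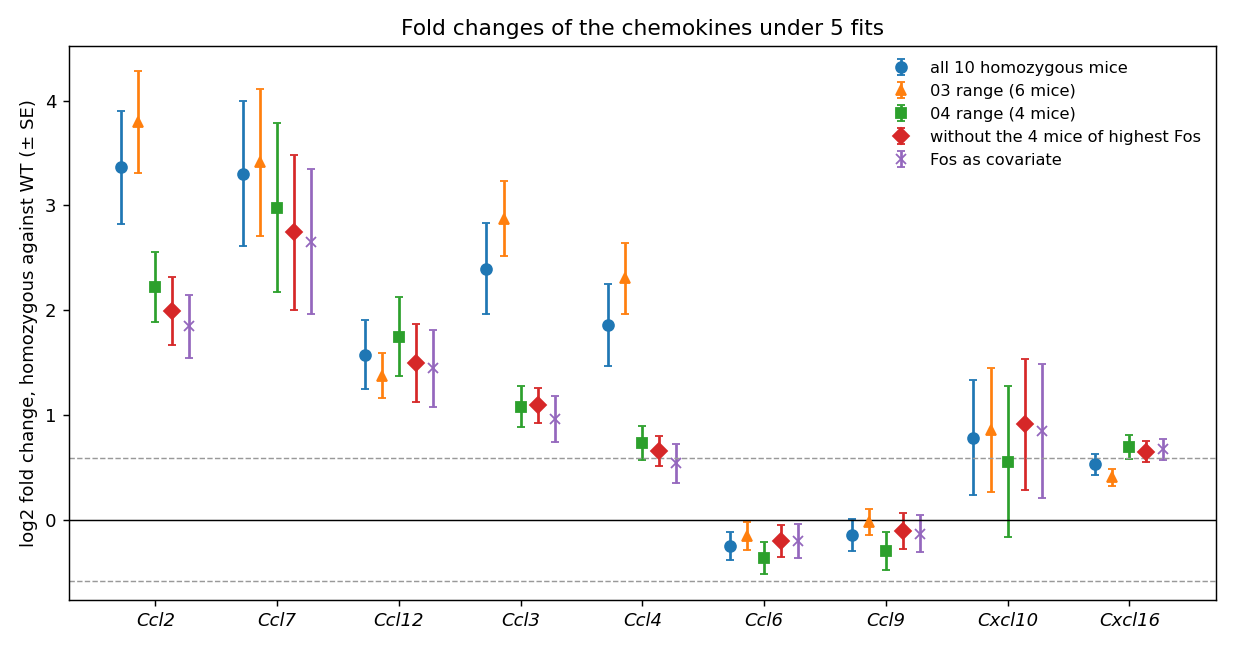
Log2 fold change ± SE between homozygous and WT mice for 9 chemokines in 5 fits, with dashed lines at a fold change of 1.5. Ccl2, Ccl3 and Ccl4 move most between fits, from 3.36 to 1.85, from 2.40 to 0.96 and from 1.86 to 0.54 with Fos as covariate, while Ccl12 stays between 1.38 and 1.75. All fits but that of the 03 range include M4. Its Ccl12 was 266 CPM, against 36.2 to 57.5 CPM in the other mice of lower Fos.

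The difference between homozygous and WT mice was compared between females and males by its own test. None of the 9 chemokines was called by edgeR, DESeq2 or limma-voom, and 0.0% of all genes were called by edgeR (0 of 12908, with 644 at an unadjusted p below 0.05, and 1 gene by DESeq2). Among the 9 chemokines, Ccl6 (0.61, SE 0.26, p = 0.0269, adjusted p = 0.933) and Ccl9 (0.66, SE 0.29, p = 0.0312, adjusted p = 0.957) had the lowest unadjusted p of the edgeR test, and WT females numbered 2.

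Of the 26 other chemokine ligands looked for, 7 were expressed enough to be tested, and 0 were called between homozygous and WT mice. Their summed level was 16.8 to 20.9 CPM in homozygous, 16.0 to 25.5 CPM in heterozygous and 15.2 to 21.5 CPM in WT mice. Ccl5, which lies 42.4 kb from Ccl9, had at most 25 counts and a log2 fold change of 0.50 (SE 0.60, adjusted p = 0.649, edgeR). Ccl8 and Ccl11, between or beside Ccl7 and Ccl12, had at most 11 and 0 counts, and Cxcl1, Cxcl9 and Cxcl11 at most 3, 13 and 9.

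Of the receptors, 14 of 24 were tested, with 1 called higher and 1 lower against WT mice, where 1.65% of all genes were called higher and 1.75% lower. Ccr2, the receptor of Ccl2, Ccl7 and Ccl12 and a marker of monocytes, was 7.84 to 20.2 CPM in homozygous (median 12.0), 2.81 to 9.41 CPM in heterozygous (median 6.18) and 3.67 to 5.69 CPM in WT mice (median 5.04), a log2 fold change of 1.28 (SE 0.23, adjusted p = 0.000812, edgeR) that was 1.25 (SE 0.24) without the 4 mice of highest Fos. Ccr1, a receptor of Ccl3, Ccl6 and Ccl9, had a log2 fold change of -0.19 (SE 0.18, adjusted p = 0.548) and was not called. Cx3cr1, the fractalkine receptor of microglia, was at 5677 to 7152 CPM in homozygous and 7967 to 11860 CPM in WT mice, with a log2 fold change of -0.51 (SE 0.075, adjusted p = 0.000182) below the fold threshold.

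Ccr6, the receptor of Ccl20, was called lower (log2 fold change -2.32, SE 0.78, adjusted p = 0.0497, edgeR), and not without the 4 mice of highest Fos (-1.81, SE 0.69, adjusted p = 0.113). It was 206.9 to 257 CPM in WT and 184 to 253 CPM in heterozygous mice, and in homozygous mice it was 122 to 140 CPM in F1, F4, F5 and M5 and 1.5 to 2.56 CPM in F2, F3, M1, M2, M3 and M4. Its 2 levels did not follow Fos, since F1 and F2 fell on different sides. Ccl20 was listed at 0 in every library.

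Of 22 regulators and inducers of chemokine transcription tested, 4 were called higher, where 1.65% of all genes were, and 0 lower: Tnf (log2 fold change 2.11, SE 0.59, adjusted p = 0.0200, edgeR), the NF-kB cofactor Nfkbiz (1.68, SE 0.28, adjusted p = 0.000588), Il1b (1.24, SE 0.40, adjusted p = 0.0409) and the interferon-response factor Irf7 (0.68, SE 0.23, adjusted p = 0.0477). The list's median log2 fold change was 0.074, against 0.012 over all genes, with 14 genes above 0 and 8 below. Ifngr1 (-0.50, SE 0.069, adjusted p = 8.96e-05, edgeR) and Tnfrsf1a (-0.25, SE 0.076, adjusted p = 0.033) were lower but under the fold threshold. Without the 4 mice of highest Fos, a fit of the lists added after the data were seen, Nfkbiz (1.04, SE 0.19, adjusted p = 0.00298) and Il1b (1.47, SE 0.45, adjusted p = 0.0447) were called, and Tnf (1.01, SE 0.57, adjusted p = 0.308) and Irf7 (0.56, SE 0.25, adjusted p = 0.180) were not. Tnf was 22.9, 12.9, 3.78, 6.58 and 4.06 CPM in homozygous females F1 to F5 and 34.2, 23.2, 2.82, 16.3 and 3.48 CPM in males M1 to M5, against 1.73 to 6.49 CPM in WT mice. Its 5 highest mice, F1, F2, M1, M2 and M4, were also the 5 highest for Ccl2. Il1b was highest in M4 (8.98 CPM), the mouse with the highest Ccl12 and the lowest Ccl6.

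Of 16 immediate-early genes, 13 were tested and 12 were called higher between homozygous and WT mice (1.65% of all genes), with a median log2 fold change of 2.45. Without the 4 mice of highest Fos, which were left out by a member of this list, 3 were called (Egr1, Ier2 and Jun, against 1.15% of genes) and the median was 0.79. Between the 03 and 04 ranges 9 of them were called higher (0.302% of all genes). Their summed level was 458 to 624 CPM in WT mice, 597 to 1010 CPM in the 6 homozygous mice of lower Fos and 8732 to 13270 CPM in the other 4.

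Over the 23 mice, the genes outside the list whose log2 CPM ranked most like each chemokine were named as a description, and the points share the split by genotype. For Ccl3 they were Jun (Spearman's rho 0.917), Osm (0.897) and Ier2 (0.878), and for Ccl4 they were Atf3 (0.933), Ier2 (0.914) and Rgs19 (0.909), which makes 5 genes in all, with the immediate-early genes Jun, Ier2 and Atf3 among them. For Ccl2 they were Crtc2 (0.889), Rnf141 (0.873) and Kansl2 (0.864), for Ccl7 Pold3 (0.868), Cab39l (0.850) and Lrrc40 (0.830), and for Ccl12 Pvt1 (0.892), Ntpcr (0.881) and Ier3 (0.856). Cxcl16 ranked most like the lysozyme gene Lyz2 (0.911), Igsf6 (0.910) and Slfn2 (0.865). Among the members themselves, rho was highest between Ccl2 and Ccl7 (0.844) and between Ccl3 and Ccl4 (0.839), and it was -0.435 between Ccl4 and Ccl6. Ccl6 and Ccl9 had 0.644 with each other. Their nearest others were Il4i1 (0.774), Sqor (0.760) and Gm11942 (0.748) for Ccl6 and Zfp993 (0.759), Sqor (0.705) and Rnf13 (0.695) for Ccl9. For Cxcl10 they were Gm13657 (0.843), Usp12 (0.787) and Prss36 (0.709).

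Markers of other cells were measured beside these changes. Monocyte markers (8 genes, Ccr2 included) summed to 11.8 to 29.0 CPM in homozygous, 6.63 to 17.0 CPM in heterozygous and 8.30 to 15.0 CPM in WT mice. Of 5 tested, Ccr2 alone was called. It made up 12.5 CPM of that sum on average in homozygous and 4.92 CPM in WT mice. Among the uncalled markers, Chil3 (log2 fold change 1.94, SE 1.2, adjusted p = 0.335, edgeR) and Nr4a1 (0.97, SE 0.44, adjusted p = 0.15) lay above 0. Plac8 (-0.17, adjusted p = 0.813) and Fn1 (-0.62, adjusted p = 0.448) lay below 0, and the median over the 5 was 0.97. Neutrophil markers (7 genes in the table) summed to 2.99 to 87.6 CPM, 5.88 to 53.2 CPM and 2.64 to 40.7 CPM in the same order, with 25.0 to 87.6 CPM in the 03 range and 2.99 to 36.3 CPM in the 04 range, and 0 of 6 tested were called. Their median log2 fold change against WT mice was 1.69, with 4 above 0 and 2 below. In the 4 mice of highest Ccl3 the neutrophil sum was 26.6, 25.0, 47.2 and 87.6 CPM. At low Ccl3, it was 39.1, 5.73, 36.3, 81.7, 2.99 and 9.98 CPM in F3, F4, F5, M3, M4 and M5. Markers of border macrophages (8 genes, Mrc1 at 0 in every library) summed to 6.12 to 39.6 CPM in homozygous and 7.23 to 35.3 CPM in WT mice, and 0 of 7 tested were called. Lymphocyte markers summed to at most 1.13 CPM in any mouse, with Nkg7 at 0 throughout. Neuronal markers were lower in homozygous mice, at 4.29 to 8.41 CPM against 11.7 to 35.2 CPM in WT mice. Of 5 tested, Snap25, Nrgn and Gad1 were called lower, where 1.75% of all genes were. Astrocyte and oligodendrocyte markers had 1 called lower each (Aldoc of 4 tested and Mobp of 6 tested). Endothelial markers had 0 of 3 tested called, with Cldn5 and Tek at 0 throughout. Without the 4 mice of highest Fos, the border macrophage marker F13a1 was called higher and the endothelial marker Pecam1 lower, and Gad1 and Mobp were no longer called. The microglial marker Itgam was again called lower in that fit (-0.61, SE 0.12, adjusted p = 0.0043, edgeR). The part of these markers in the chemokine differences was not tested.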

How the data were processed

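Single-end 50-base RNA-seq libraries of sorted microglia had been prepared with a low-input full-length kit that does not mark strand. The authors aligned the reads with OSA4 to mm10 and the Ensembl R84 gene model and deposited RSEM expected counts per gene, unscaled, from which they had removed 2 mice. RSEM and DESeq2 are named in the submitters' processing notes, and versions are not given in the sources used here.

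Expected counts were rounded (82.2% of values were whole), and 42929 of 43411 gene IDs were matched to symbols in GENCODE M21. Genes kept by filterByExpr were tested with edgeR 4.0.16 (R 4.3.3; quasi-likelihood, TMM, genotype and sex, Benjamini-Hochberg over 12908 genes). Calls needed both an adjusted p under 0.05 and a change of over 1.5-fold. The number range and the genotype-by-sex contrasts had fits of their own. Log2 CPM used a prior count of 2. The code was tested on simulated data. DESeq2 1.42.0, limma 3.58.1, other normalizations and filters, and each mouse left out were alternatives. Named were the members, Fos, Bin1, called or abundant genes of fixed lists, and the 3 genes ranking most like each member. Neighbouring ligands, Ccr1, Ccl20 and Chil3 were added for their place or role, after their values were seen. The members and lists were chosen with earlier results of these data known. Each mouse is labelled as a separate animal. Totals of 10812969 to 16734846 counts limit genes such as Cxcl2, Ccl7 and Cxcl10, and intervals on counts cover counting error only. Protein sequences were not used here.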

Additional observations from a re-analysis of the deposited data

Results flagged for a closer look

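Among 27 combinations of chemokine and genotype, 2 had a mouse far from the rest of its group, and chance alone gives about 1 in 20. WT male M1 had the highest Ccl7 of the WT mice (1.12 CPM), with 0.699 of the group's range on log2 CPM between it and the next mouse. Heterozygous male M4 had the lowest Ccl12 (12.9 CPM), with a gap of 0.641 of the range. The difference between homozygous and WT mice was larger in the 03 than in the 04 number range for Ccl3 (by 1.77 on the log2 scale, adjusted p = 0.0235, edgeR) and for Ccl4 (by 1.57, adjusted p = 0.0409), both ranges sharing the same WT mice.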

How the results depend on the processing

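Between homozygous and WT mice 5 to 6 chemokines were called in every alternative, between homozygous and heterozygous mice 5 to 6, and in the heterozygous and sex comparisons 0. Without TMM the median over all genes was 0.11 in place of 0.012, 347 of 515 genes called were higher in place of 213 of 439 (against heterozygous mice, 402 of 824 in place of 299 of 854), and Cxcl16 was called. With Fos as covariate Ccl4 was lost and Cxcl16 gained, and 279 genes were called in place of 439 (against heterozygous mice, 456 in place of 854, 505 without the 4 mice of highest Fos and 542 with the 04 range alone). Between number ranges the 2 called chemokines became 0 with robust estimation and 0 with limma-voom, 3 with no filter, and 0 to 3 as single mice were left out. All-gene calls between ranges went from 46 to 17 with limma-voom, 119 with DESeq2 and 173 with no filter, and those without a fold threshold rose to 1645 from 439 (homozygous against WT) and to 2936 from 854 (against heterozygous). Signs turned for some values, not all of them near 0. Against WT, heterozygous Cxcl10 was -0.013 with only both groups in the fit, and Cxcl16 was 0.0196 without TMM. With single mice left out, the same difference ran from -0.20 to 0.059 for Ccl2, -0.16 to 0.068 for Ccl4, -0.043 to 1.55 for Ccl7, -0.44 to 0.50 for Cxcl10 and -0.039 to 0.016 for Cxcl16. Homozygous against heterozygous Ccl9 was -0.14 with the 04 range alone, -0.033 with limma-voom and -0.072 to 0.054 as single mice were left out. Between ranges Ccl12 was 0.018 with limma-voom and -0.63 to 0.76 as single mice were left out. Without F3 and M3, r with Fos was 0.737 for Ccl2, 0.201 for Ccl4, 0.298 for Ccl7, -0.633 for Ccl6 and -0.288 for Ccl9. The causes were not tested. No paired analysis was possible because the labels give the mice no shared replicate numbers across genotypes.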
